A study of Mus musculus with 6 samples.

Results

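The genes described here are 10 lysosomal cathepsins (Ctsa, Ctsb, Ctsc, Ctsd, Ctsh, Ctsk, Ctsl, Ctso, Ctss and Ctsz). They were chosen as the probe sets to which the array annotation gives 1 of these symbols, which are 22 of the 45101 probe sets of the array and 10 of 18193 genes named by it. RNA of whole aortas had been hybridised to Affymetrix mouse arrays, with 2 arrays per group and 6 in all, and the RNA of 3 aortas was pooled on each array. The groups were non-transgenic B6 (C57BL/6J) mice, untreated APOE-deficient (ApoE-/-) mice on the B6 background, which develop atherosclerosis, and ApoE-/- mice that received the antioxidant vitamin E at 2000 IU per kg of diet for 7 months. The ApoE-/- mice were 4 to 6 weeks old at the start. All groups were fed chow with 7% fat and 0.15% cholesterol, which held no added tocopherol acetate except in the vitamin E group. All groups were 32 to 34 weeks old when the aortas were taken. They are called the B6, untreated and vitamin E groups in what follows. The comparisons described here are those of untreated ApoE-/- with B6 aortas and of the vitamin E group with both.

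Cathepsins are proteases that are made as inactive proenzymes, are sorted to the lysosome by the mannose 6-phosphate pathway and become active at acid pH. Most are cysteine proteases of the papain family, whereas cathepsin D is an aspartic protease and cathepsin A a serine carboxypeptidase. In the vessel wall they are known from lesion macrophages and from smooth muscle cells, which can release them and where cathepsins S, K and L break down elastin and collagen.

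The promoters of 4 cathepsins are printed because these genes stand for the patterns that follow: Ctss, Ctsz and Ctsd had higher signals in both ApoE-/- groups than in B6 aortas, and Ctsl had the highest signals in the vitamin E group. They are RefSeq sequences of assembly GRCm38.p6, from 250 bases before to 50 bases after the transcription start. Ctss lies at chr3:95526536-95526835 on the plus strand, and Ctsz at chr2:174438990-174439289, Ctsd at chr7:142387778-142388077 and Ctsl at chr13:64370471-64370770 on the minus strand. Each is printed 5′ to 3′ in the direction of transcription, with every match to CACGTG, GAGGAAGT or GGGCGG on either strand in capitals.
Ctss promoter: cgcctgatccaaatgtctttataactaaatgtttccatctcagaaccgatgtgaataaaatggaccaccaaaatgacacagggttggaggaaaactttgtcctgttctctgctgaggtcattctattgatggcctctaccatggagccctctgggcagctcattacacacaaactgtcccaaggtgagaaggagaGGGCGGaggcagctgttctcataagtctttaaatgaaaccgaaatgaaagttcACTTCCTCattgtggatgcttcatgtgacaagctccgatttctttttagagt
Ctsz promoter: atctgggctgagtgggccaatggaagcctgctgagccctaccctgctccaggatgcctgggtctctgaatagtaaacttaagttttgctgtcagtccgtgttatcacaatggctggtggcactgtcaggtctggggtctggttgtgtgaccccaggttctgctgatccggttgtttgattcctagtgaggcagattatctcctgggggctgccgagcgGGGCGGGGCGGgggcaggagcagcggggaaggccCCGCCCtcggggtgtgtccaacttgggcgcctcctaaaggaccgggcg
Ctsd promoter: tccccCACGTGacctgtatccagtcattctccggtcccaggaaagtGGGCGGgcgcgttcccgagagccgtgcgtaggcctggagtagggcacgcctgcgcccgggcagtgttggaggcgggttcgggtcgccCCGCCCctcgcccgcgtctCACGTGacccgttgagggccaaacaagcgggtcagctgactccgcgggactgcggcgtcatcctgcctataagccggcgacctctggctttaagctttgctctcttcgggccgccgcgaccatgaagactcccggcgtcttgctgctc
Ctsl promoter: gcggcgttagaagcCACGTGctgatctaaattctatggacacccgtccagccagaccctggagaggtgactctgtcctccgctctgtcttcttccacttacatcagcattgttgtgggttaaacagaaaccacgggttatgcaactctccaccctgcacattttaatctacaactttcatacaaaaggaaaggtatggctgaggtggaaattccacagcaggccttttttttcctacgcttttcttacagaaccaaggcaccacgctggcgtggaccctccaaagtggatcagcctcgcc
CACGTG is an E-box and the core of the element that transcription factor EB binds in lysosomal genes. GAGGAAGT is a motif of the ETS factor PU.1, which is active in macrophages, and GGGCGG is the GC box of Sp1. The table of promoters held 8 of the 10 genes with 9 windows, and Ctsb and Ctsh were not among them. CACGTG was in the windows of Ctsa, Ctsd and Ctsl (3 of 9 windows, against 7.15% of all 32851 promoters of the same length). GAGGAAGT was in those of Ctsc and Ctss (2 of 9, against 3.2%), and GGGCGG in those of Ctsc, Ctsd, Ctso, Ctss and Ctsz (5 of 9, against 35.7%). In the Ctsd promoter the CACGTG matches begin 245 and 98 bases before the start (positions -245 and -98), in that of Ctsl the match begins at position -236, and in that of Ctss GAGGAAGT begins at position -2. The GGGCGG matches of Ctsz at positions -32 and -27 share a base. These are matches of letters, and binding was not measured.

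The arrays carried markers of the aortic wall and also differed in ways other than the treatment. Acta2, the smooth muscle actin, had signals from 8791 to 11061 over the 6 arrays. Apoe, the targeted gene, had signals of 5209 and 5432 in B6 and of 40.5 to 93.2 in the ApoE-/- groups. The poly-A control transcripts that are added during labelling had 2.62- to 4.11-fold higher signals on the B6 arrays than on the untreated ApoE-/- arrays and 2.21- to 3.32-fold higher signals than on the vitamin E arrays, so that genotype and a difference in labelling cannot be told apart in comparisons with B6. Between the ApoE-/- groups they were 1.09- to 1.26-fold higher in the vitamin E group. The vitamin E arrays were registered apart from those of the other groups, and the labels do not say when arrays were run. Treatment and a difference in processing thus cannot be told apart in comparisons with the vitamin E group. The 3′ to 5′ signal ratio of Gapdh was 1.03 and 1.06 in the untreated group, 1.15 and 1.24 in the vitamin E group and 1.34 and 1.35 in B6. That of beta-actin had another order, with 1.78 and 1.88 in the untreated group, 1.64 and 1.64 in the vitamin E group and 2.01 and 2.06 in B6. Labels do not say whether pooled mice were shared between arrays, and p-values measure the spread between arrays.

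Cathepsin signals were higher in the untreated group than in B6 for 7 of the 10 genes by at least 1 probe set, and lower for none, by the limma test across all probe sets. The called rises were of 1.24- to 1.64-fold and included cathepsins S, Z, H, L, D, C and B. A probe set was tested where its mean signal was at least 100 in 1 group or more, and a call is an adjusted p under 0.05 (limma, Benjamini-Hochberg over the 17909 probe sets tested). This left 16 cathepsin probe sets, with at least 1 for each of the 10 genes. Of these 16, 10 were called higher, 0 lower and 6 in neither direction. Over all probe sets tested, 40.8% were called in this comparison, 21.7% higher and 19.1% lower. The groups did not overlap in 12 of the 16, all of them higher, whereas 76.8% of all probe sets had groups that did not overlap with 40.8% higher and 36% lower. The median log2 fold change was 0.39 for the cathepsins and 0.03 for all probe sets tested. With 1 probe set per gene, 6 of 10 genes were called higher, whereas 21.2% of all genes were higher and 20.8% lower.

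Most markers of macrophages moved with these signals. Relative to B6, 11 of the 15 macrophage markers tested were called higher in the untreated group and 0 lower. Over all genes, 21.2% were higher and 20.8% lower. Some of the markers not called had lower signals in the untreated group than in B6. The summed marker signal was 12980 to 13001 in B6, 20040 to 20077 in untreated and 17579 to 18076 in vitamin E-treated ApoE-/- aortas. None of the 16 markers listed was under 20 on all arrays. One of those called higher, Cx3cr1, reached the limit of 100 in the ApoE-/- groups alone, so its higher signal than in B6 follows from that limit. The part of macrophages in the cathepsin signals was not tested. In RNA of whole aortas, more cells of a type cannot be told apart from more RNA per cell. Without replicate 2 of the untreated group, fewer cathepsin probe sets were called, and the share of all probe sets called fell too. Those still called, of Ctsz (2 probe sets), Ctsh, Ctsd, Ctss and Ctsb, were called whichever array was left out.

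**Figure D1:**
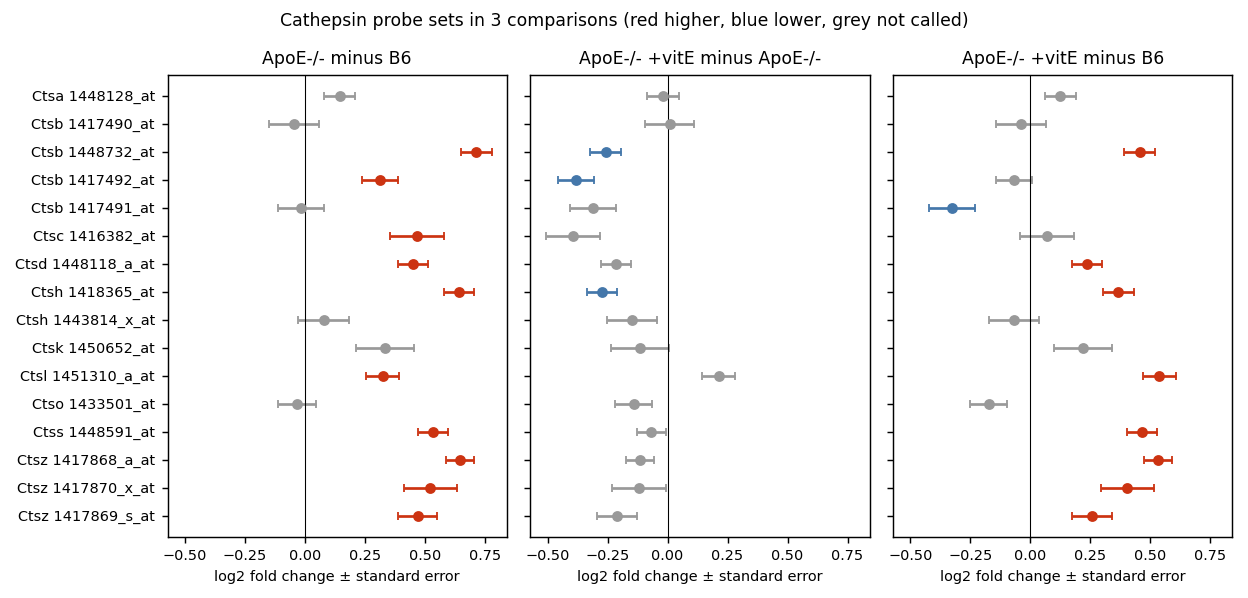
Log2 fold change of the 16 tested cathepsin probe sets (x axis, with standard errors as bars) in each of the 3 comparisons, 1 row per probe set. Red marks an adjusted p under 0.05 with a higher signal, blue with a lower signal, and grey no call: 10 points are red on the left, 3 are blue in the middle, and 8 are red and 1 blue on the right.

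Among the cathepsins known to break down elastin and collagen, cathepsins S and L had higher signals in ApoE-/- aortas and cathepsin K was not called. Ctss, which also trims the invariant chain in cells that present antigen, had signals of 2092 and 2008 in B6, 2978 and 2956 in untreated and 2900 and 2763 in vitamin E-treated ApoE-/- aortas. All 4 ApoE-/- arrays were above both B6 arrays, and the vitamin E arrays lay just below the untreated ones. Relative to B6, Ctss was 1.45-fold higher in the untreated group (log2 fold change 0.53 ± 0.06 SE, adjusted p = 0.000554, limma) and 1.38-fold higher in the vitamin E group (0.47 ± 0.06, adjusted p = 0.0011). The vitamin E group differed from the untreated group by -0.07 ± 0.06, which was not called (adjusted p = 0.492, limma).

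Ctsk, the main collagenase of osteoclasts, had signals of 157 and 163 in B6, 191 and 212 in untreated and 196 and 177 in vitamin E-treated aortas. Both ApoE-/- groups were above B6 without overlap and overlapped with each other. Relative to B6, its log2 fold change in the untreated group was 0.33 ± 0.12, with the largest standard error of the 16 probe sets, and was not called (adjusted p = 0.0632, limma), although it was called without replicate 2 of the vitamin E group, without the intensity trend and in a fit of the 2 groups alone. Ctsk and Ctss are close neighbours on chromosome 3, with 1 RefSeq gene between them.

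Ctsl, which is also the protease that trims the invariant chain in the thymic cortex, had another order of groups. Its signals were 2444 and 2373 in B6, 2997 and 3037 in untreated and 3332 and 3668 in vitamin E-treated ApoE-/- aortas. None of the groups overlapped, and the vitamin E arrays were the highest. Ctsl was 1.25-fold higher in the untreated group than in B6 (0.33 ± 0.07, adjusted p = 0.00805, limma) and 1.45-fold higher in the vitamin E group than in B6 (0.54 ± 0.07, adjusted p = 0.000951). The first of these calls was lost when any 1 of the B6 or untreated arrays was left out. The difference between the ApoE-/- groups, 0.21 ± 0.07, was not called (adjusted p = 0.0784, limma), although it was called without replicate 1 of the vitamin E group and under quantile normalization.

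Markers of the thymic epithelium had the same order of groups as Ctsl. Their summed signal over 6 probe sets was 81.3 to 95.2 in B6, 1891 to 2006 in untreated and 3267 to 3334 in vitamin E-treated aortas. All 4 that were tested reached the limit of 100 in the ApoE-/- groups alone, so a higher signal than in B6 follows from that limit and their calls are not counted here. Prss16, the serine protease of thymic cortical epithelium, had signals of 27.8 and 31.2 in B6, 612 and 623 in untreated and 1010 and 1122 in vitamin E-treated aortas. Summed signals of immature thymocyte markers also ran in this order, with 495 to 524 in B6, 3895 to 4975 in untreated and 7232 to 7564 in vitamin E-treated aortas. Most thymocyte markers tested were under the limit of 100 in B6. The order was not particular to the thymus, since sums of B cell, cytotoxic lymphocyte and MHC class II genes shared it. The part of these markers in the Ctsl signal was not tested.

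**Figure D2:**
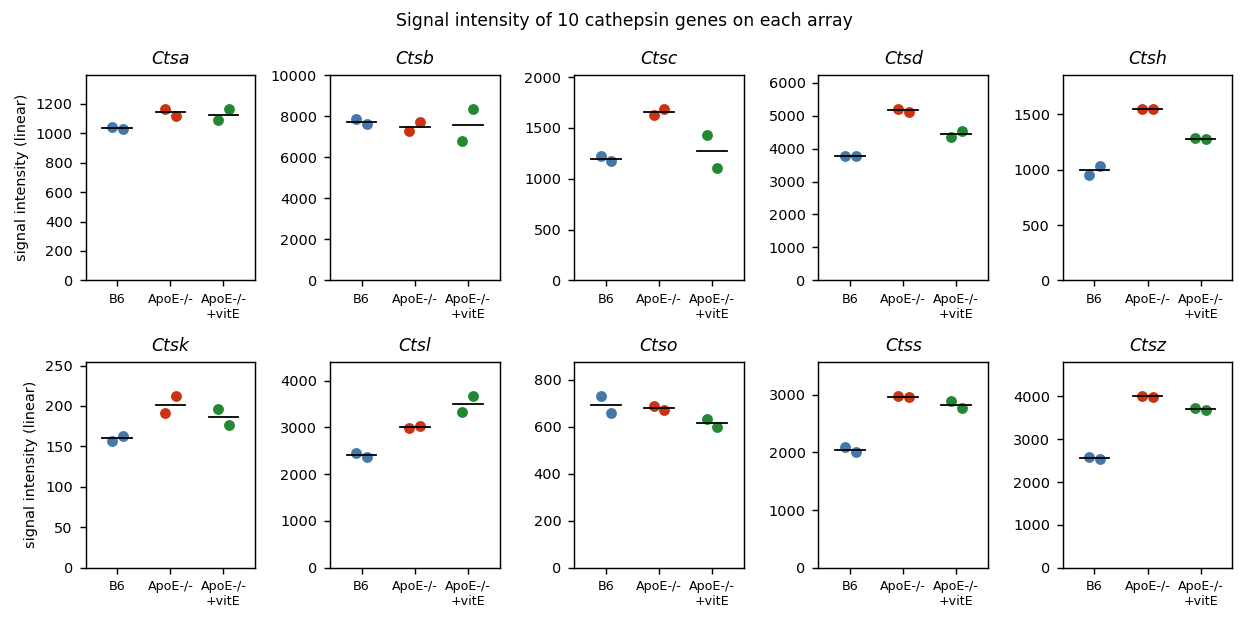
Linear signal intensity (y axis, from 0) of each cathepsin gene on the 6 arrays, for the probe set with the highest mean signal of the gene. Points are arrays and lines the group means. Ctss, Ctsz, Ctsd, Ctsh, Ctsl, Ctsa and Ctsk have all 4 ApoE-/- arrays above both B6 arrays, although Ctsa and Ctsk were not called. Ctsl is highest in the vitamin E group, and Ctsb and Ctso overlap between the untreated group and B6.

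Among the exopeptidases, which remove residues from the ends of proteins, cathepsins Z and H were higher in both ApoE-/- groups than in B6. Ctsz, a carboxypeptidase, had signals of 2579 and 2532 in B6, 4007 and 3998 in untreated and 3721 and 3678 in vitamin E-treated aortas (probe set 1417868_a_at). The 2 ApoE-/- groups were far above B6 in relation to the small spread between arrays. Ctsz was 1.57-fold higher in the untreated group than in B6 (log2 fold change 0.65 ± 0.06, adjusted p = 0.000182, limma) and 1.45-fold higher in the vitamin E group (0.53 ± 0.06, adjusted p = 0.000478). The vitamin E group lay below the untreated group without overlap, but the difference of -0.11 ± 0.06 was not called (adjusted p = 0.226, limma). The other 2 probe sets of Ctsz were called higher than in B6 as well, in the untreated group by 0.52 ± 0.11 (adjusted p = 0.00845) and 0.47 ± 0.08 (adjusted p = 0.00383), and in the vitamin E group by 0.40 ± 0.11 (adjusted p = 0.0235) and 0.26 ± 0.08 (adjusted p = 0.041) in limma. Of these 4 calls, the second was made whichever array was left out and the others were not. Without replicate 1 of B6, the values of 1417870_x_at became 0.34 and 0.22, and without replicate 1 of the vitamin E group the last value, of 1417869_s_at, became 0.15. As for a probe set of Ctsh below, the ending of 1417870_x_at marks probes that may hybridise to other transcripts.

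Ctsh, an aminopeptidase, had signals of 956 and 1029 in B6, 1550 and 1546 in untreated and 1287 and 1273 in vitamin E-treated aortas (probe set 1418365_at). The groups formed 3 separate steps, with the vitamin E arrays between the others. Ctsh was 1.56-fold higher in the untreated group than in B6 (0.64 ± 0.06, adjusted p = 0.000274, limma) and 1.29-fold higher in the vitamin E group than in B6 (0.37 ± 0.06, adjusted p = 0.00352). It was 1.21-fold lower in the vitamin E group than in the untreated group (-0.27 ± 0.06, adjusted p = 0.0283, limma), a call that was lost without any 1 of the B6 or untreated arrays. The second probe set of Ctsh, 1443814_x_at, had signals of 690 and 561 in B6, 684 and 632 in untreated and 597 and 589 in vitamin E-treated aortas. It was called in none of the 3 comparisons, and its ending _x_at marks probes that may hybridise to other transcripts.

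Ctsc, the dipeptidyl peptidase that activates granzymes and other granule proteases, had signals of 1223 and 1175 in B6, 1625 and 1688 in untreated and 1429 and 1109 in vitamin E-treated aortas. The untreated arrays were above all others, whereas replicate 2 of the vitamin E group was below both B6 arrays. Ctsc was 1.38-fold higher in the untreated group than in B6 (0.47 ± 0.11, adjusted p = 0.0139, limma), a call that was lost without any 1 of the B6 or untreated arrays. Relative to the untreated group, the difference in the vitamin E group was -0.40 ± 0.11 and was not called (adjusted p = 0.0535, limma). It was -0.58 and called lower without replicate 1 of the vitamin E group and -0.21 without replicate 2. Relative to B6, the vitamin E group was called higher (0.25) without its replicate 2 and had a value of -0.11 without its replicate 1.

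The 4 tested probe sets of Ctsb, a cysteine protease that acts both as an endopeptidase and as a dipeptidyl carboxypeptidase, did not move together. The probe set 1417490_at had signals of 7857 and 7610 in B6, 7289 and 7690 in untreated and 6790 and 8353 in vitamin E-treated aortas, with all groups overlapping and no call. Relative to B6, its log2 fold change in the vitamin E group rested on single arrays, being -0.19 and called lower (adjusted p = 0.0217, limma) without replicate 2 of the vitamin E group and 0.11 without replicate 1. The probe set 1448732_at had signals of 2348 and 2297 in B6, 3785 and 3829 in untreated and 3067 and 3309 in vitamin E-treated aortas, which did not overlap. It was 1.64-fold higher in the untreated group than in B6 (log2 fold change 0.71 ± 0.06, adjusted p = 0.000186, limma) and 1.37-fold higher in the vitamin E group than in B6 (0.46 ± 0.06, adjusted p = 0.00149). Relative to the untreated group it was 1.19-fold lower in the vitamin E group (-0.26 ± 0.06, adjusted p = 0.0374, limma).

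The probe set 1417492_at of Ctsb had signals of 635 and 581 in B6, 766 and 741 in untreated and 593 and 566 in vitamin E-treated aortas. The untreated arrays were the highest, and the vitamin E arrays overlapped with B6. It was 1.24-fold higher in the untreated group than in B6 (0.31 ± 0.08, adjusted p = 0.014, limma), which was not called without replicate 2 of B6 or without either untreated array, and 1.30-fold lower in the vitamin E group than in the untreated group (-0.38 ± 0.08, adjusted p = 0.0167). The probe set 1417491_at had signals of 456 and 451 in B6, 436 and 461 in untreated and 335 and 390 in vitamin E-treated aortas. Its vitamin E arrays were the lowest, and it was 1.25-fold lower in the vitamin E group than in B6 (-0.33 ± 0.10, adjusted p = 0.0293, limma). This was the only cathepsin probe set called lower than in B6 and the call was lost without any 1 array other than replicate 2 of the vitamin E group, with -0.22 without replicate 1 of that group. The annotation gives the same GenBank entry for all 4 tested probe sets of Ctsb.

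Probe sets of Ctsb and of Ctsh differed in how far they moved, which was examined without a test. For each array, the log2 signal of each probe set was taken relative to its own mean in B6. The value of 1448732_at minus that of 1417490_at was then 0.79 and 0.73 in untreated, 0.59 and 0.40 in vitamin E-treated and within 0.01 of 0 in B6 aortas, so that the groups did not overlap. For 1417492_at minus 1417490_at it was 0.42 and 0.30 in untreated and 0.15 and -0.21 in vitamin E-treated aortas, the second pair lying on both sides of the B6 values of 0.04 and -0.04. For 1417491_at minus 1417490_at it was 0.03 and 0.03 in untreated and -0.25 and -0.33 in vitamin E-treated aortas. For Ctsh, the value of 1418365_at minus that of 1443814_x_at was 0.51 and 0.62 in untreated, 0.43 and 0.44 in vitamin E-treated and -0.20 and 0.20 in B6 aortas. This shows unequal change of probe sets assigned to the same gene, and the part of the transcript that each detects was not examined.

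**Figure D3:**
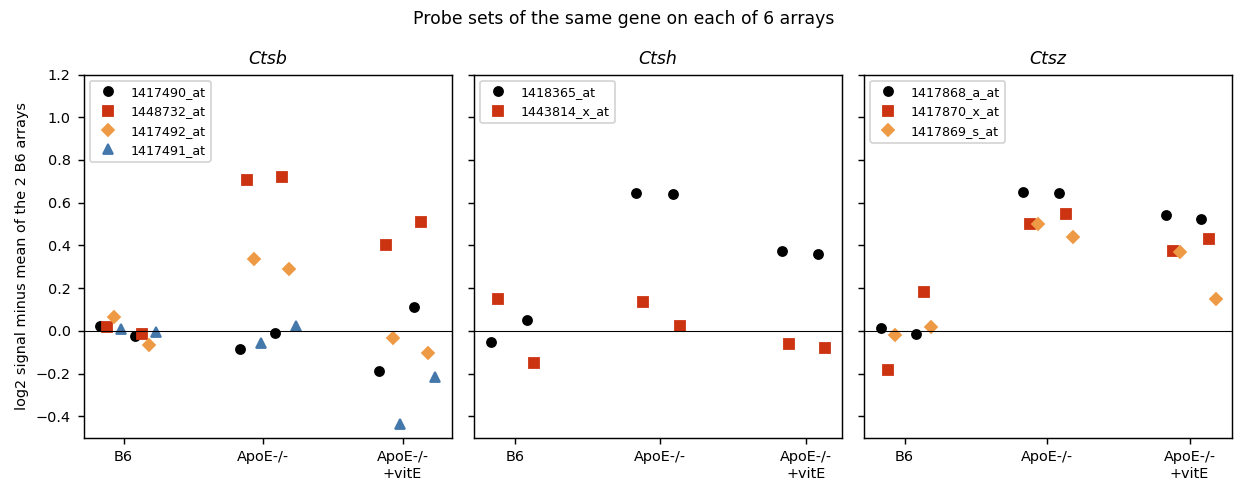
Log2 signal of each tested probe set of Ctsb, Ctsh and Ctsz on the 6 arrays, minus its own mean over the 2 B6 arrays (y axis), with 1 symbol per probe set. The 3 probe sets of Ctsz rise together in both ApoE-/- groups, whereas those of Ctsb spread from -0.09 to 0.72 in the untreated group.

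Of the other members, cathepsin D was higher in both ApoE-/- groups and cathepsins O and A were not called. Ctsd, the main aspartic protease of lysosomes, had signals of 3783 and 3760 in B6, 5205 and 5107 in untreated and 4340 and 4537 in vitamin E-treated aortas. The groups did not overlap, and the vitamin E arrays lay about midway between the others. Ctsd was 1.37-fold higher in the untreated group than in B6 (0.45 ± 0.06, adjusted p = 0.00127, limma) and 1.18-fold higher in the vitamin E group than in B6 (0.23 ± 0.06, adjusted p = 0.0205), the second of which was lost without any 1 of the B6 or untreated arrays. The 2 ApoE-/- groups differed by -0.22 ± 0.06, which was not called (adjusted p = 0.0558, limma), although it was called without either array of the vitamin E group and under quantile normalization.

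Ctso, a papain-like cathepsin with a broad distribution, had signals of 729 and 657 in B6, 686 and 669 in untreated and 632 and 597 in vitamin E-treated aortas. The vitamin E arrays were the lowest, and B6 and untreated arrays overlapped. The log2 fold changes of Ctso lay between -0.17 and -0.03 in the 3 comparisons, without a call. Ctsa, the carboxypeptidase that protects beta-galactosidase and neuraminidase in the lysosome, had signals of 1040 and 1026 in B6, 1164 and 1120 in untreated and 1088 and 1166 in vitamin E-treated aortas. All 4 ApoE-/- arrays were above B6, and the log2 fold change of 0.14 ± 0.07 between the untreated group and B6 was not called (adjusted p = 0.113, limma), although it was called without either array of the vitamin E group and in a fit of the 2 groups alone.

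The vitamin E group had mostly lower cathepsin signals than the untreated group, but few of these differences were called. Of the 16 probe sets, 3 were called lower (Ctsh 1418365_at, Ctsb 1448732_at and Ctsb 1417492_at), 0 higher and 13 in neither direction. Over all probe sets tested, 15.5% were called, 8.52% higher and 6.99% lower. The groups did not overlap in 13 of the 16, with 12 lower and 1 higher, against 58.9% of all probe sets (28.4% lower and 30.5% higher). The median log2 fold change was -0.14 for the cathepsins and 0.00 for all probe sets tested. With 1 probe set per gene, 1 of 10 genes, Ctsh, was called lower, whereas 7.65% of all genes were lower and 8.18% higher. At an unadjusted p under 0.05, 8 of the 16 probe sets differed, against 31.6% of all probe sets tested.

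The number of calls between the ApoE-/- groups depended on single arrays. It fell without an array of the untreated group or of B6 and rose without either array of the vitamin E group. None of the 3 calls was made whichever array was left out. The share of all probe sets called also fell without an untreated or B6 array. It rose without replicate 1 of the vitamin E group but not without replicate 2. Called in addition were Ctsc, Ctsd and Ctsz 1417869_s_at (lower) and Ctsl (higher) without replicate 1, and Ctsd and Ctsb 1417491_at (lower) without replicate 2 of the vitamin E group. The number of cathepsin calls was 0 without the limit on low signals, where 2.11% of all probe sets were called. It was 1 without the intensity trend in limma (11.9% of all) or in a fit of the 2 groups alone (9.49%).

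When the vitamin E group was set against B6, 8 of the 16 cathepsin probe sets were called higher, 1 lower and 7 in neither direction. Over all probe sets tested, 41.1% were called, 21.9% higher and 19.2% lower. The median log2 fold change was 0.23 for the cathepsins and 0.02 for all probe sets tested, and the called rises were of 1.18- to 1.45-fold. The groups did not overlap in 12 of the 16, with 10 higher and 2 lower, against 71.5% of all probe sets (37.4% higher and 34% lower). With 1 probe set per gene, 5 of 10 genes were called higher, whereas 21.1% of all genes were higher and 21.7% lower. All 8 probe sets were also called higher in the untreated group relative to B6, a comparison that shares the B6 arrays, and they stand for 6 genes (Ctsb, Ctsd, Ctsh, Ctsl, Ctss and Ctsz). Without replicate 1 of B6, fewer cathepsin probe sets were called, and the share of all probe sets called fell too. By the probe set with the highest signal of each gene, the group means ran from untreated over vitamin E to B6 in 7 of the 10 genes. The exceptions were Ctsl, highest in the vitamin E group, Ctso, highest in B6 and lowest in the vitamin E group, and Ctsb, whose means differed by less than the spread between arrays.

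The 6 cathepsin probe sets that were not tested had signals of 18.9 to 73.3 on all arrays. They belong to Ctsa, Ctsb, Ctsc (2 probe sets), Ctsl and Ctso, each of which has a brighter probe set among those tested. The untested probe set of Ctsb, 1444987_at, had signals of 26.2 and 18.9 in B6, 65.4 and 51.9 in untreated and 63.3 and 57 in vitamin E-treated aortas, with both ApoE-/- groups above B6. Without the limit on low signals it was called higher in both ApoE-/- groups against B6.

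By the brightest probe set of each gene, Ctsz, Ctsh and Ctsl had the widest range of group means. These 3 probe sets were set beside 16061 other tested probe sets by the root mean square difference of log2 signals over the 6 arrays, each centred on its own mean. The closest to Ctsz were Fmod (0.025), which encodes the collagen-binding fibromodulin, Aldh18a1 (0.026), Ripor2, Tfdp1 and Clip4. Closest to Ctsh were Il22ra2 (0.019), which encodes a soluble receptor for interleukin 22, Ywhag (0.032), Sav1, Ttc7b and Cenpb. For Ctsl the closest were Actr3 (0.012), which encodes a subunit of the actin-nucleating Arp2/3 complex, Cd52 (0.021), a surface glycoprotein of lymphocytes and other leukocytes, Ddx51, Champ1 and Ttc13. With 6 arrays in 3 groups, many probe sets can share an order of groups.

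Of 14 other cathepsins and related proteases of the array, 4 were tested and 10 were under the limit, among them the placental cathepsins and Ctsg of neutrophils. Ctse, an aspartic protease of endosomes in immune cells and epithelia, had signals of 22.7 and 35.8 in B6, 195 and 130 in untreated and 196 and 179 in vitamin E-treated aortas. All 4 ApoE-/- arrays were above B6, where it was under the limit of 100, so that it was tested only through the groups in which it was high and no fold is given. In the untreated group relative to B6, Napsa, an aspartic protease of lung and kidney, rose by 0.33 ± 0.09 (adjusted p = 0.0221, limma), and Ctsw, of cytotoxic lymphocytes, by 0.49 ± 0.16 (adjusted p = 0.0432). Ctsf was not called in this comparison and was lower in the vitamin E group than in the untreated group (-0.38 ± 0.10, adjusted p = 0.045, limma).

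Of 19 inhibitors of cathepsins, 7 were tested, of which 1 was called higher and 2 lower in the untreated group relative to B6 (median -0.13), and 2 higher and 1 lower in the vitamin E group relative to the untreated group (median -0.04). Over all genes, 21.2% were higher and 20.8% lower in the first comparison and 8.18% and 7.65% in the second, and no difference from these shares was tested. Cst3, the secreted cystatin C, had signals of 6993 and 6928 in B6, 6358 and 6377 in untreated and 5657 and 6294 in vitamin E-treated aortas and was called lower in the vitamin E group against B6 alone (-0.22 ± 0.07, adjusted p = 0.0472, limma). Cst7, cystatin F of immune cells, was higher in the untreated group than in B6 (0.49 ± 0.13, adjusted p = 0.0209, limma). Csta1, a stefin known from epithelia and neutrophils, had signals of 267 and 296 in B6, 86.2 and 88.3 in untreated and 396 and 284 in vitamin E-treated aortas. The untreated arrays were below the others and under the limit of 100. Csta1 was thus tested only through the groups in which it was high, and no fold is given. The counts above include it, as lower in the first comparison and higher in the second. Cstb, the intracellular cystatin B, was 1.28-fold higher in the vitamin E group than in the untreated group (adjusted p = 0.0121, limma). Markers of stratified epithelium, which expresses Csta1, moved the same way as Csta1, with a summed signal of 24859 to 25220 in B6, 13905 to 13962 in untreated and 25595 to 29055 in vitamin E-treated aortas, and their part in it was not tested.

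The genes that process and sort cathepsins were called higher than in B6 in the untreated group for 6 of 11 tested and lower for 0 (median 0.29), where 21.2% of all genes were higher and 20.8% lower. Lgmn, the asparaginyl endopeptidase that processes the proforms of cathepsins B, H and L, had signals of 199 and 224 in B6, 510 and 508 in untreated and 403 and 436 in vitamin E-treated aortas. It was 2.41-fold higher in the untreated group than in B6 (1.27 ± 0.09, adjusted p = 7.95e-05, limma), and the vitamin E group differed from the untreated group by -0.28 ± 0.09 (adjusted p = 0.0909). Gga1, an adaptor that carries mannose 6-phosphate receptors from the Golgi, was 2.25-fold higher (adjusted p = 0.000427, limma). In the vitamin E group relative to the untreated group, 2 of the 11 were called lower and 0 higher (median -0.18). Over all genes, 7.65% were lower and 8.18% higher in this comparison. Psap, the precursor of the saposins, was higher and Scarb2, the receptor of glucocerebrosidase, lower in the vitamin E group than in B6 by limma (adjusted p = 0.0356 and 0.0194).

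Of 29 other lysosomal hydrolases tested, 7 were called higher and 3 lower in the untreated group relative to B6 (median 0.06), and 0 higher and 2 lower in the vitamin E group relative to the untreated group (median -0.10). These counts were not tested against the shares of all genes, which were 21.2% higher and 20.8% lower in the first comparison and 8.18% and 7.65% in the second. Ids, which removes sulphate from dermatan and heparan sulphate, was 1.62-fold lower in the untreated group than in B6 (-0.70 ± 0.07, adjusted p = 0.000252, limma), and Galc, the galactosylceramidase, fell by 0.53 on the log2 scale (adjusted p = 0.00558). Of 11 lysosomal membrane proteins, 2 were higher and 0 lower, Lamp2 among them (0.76 ± 0.15, adjusted p = 0.00535, limma), while Lamp1 had -0.11 ± 0.09 without a call. Of 15 subunits of the vacuolar ATPase, which acidifies the lysosome, 4 were higher and 5 lower (median -0.15), with the same shares over all genes, from Atp6v1d at -1.02 ± 0.12 (adjusted p = 0.000705, limma) to Atp6v0a1 at 0.62 ± 0.13 (adjusted p = 0.00682). Tfeb, the transcription factor of lysosomal genes, had signals of 153 and 138 in B6, 257 and 338 in untreated and 265 and 338 in vitamin E-treated aortas and was 2.03-fold higher in the untreated group than in B6 (1.02 ± 0.17, adjusted p = 0.0031, limma). It was the only one of the 3 lysosomal transcription factors tested that was called.

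**Figure D4:**
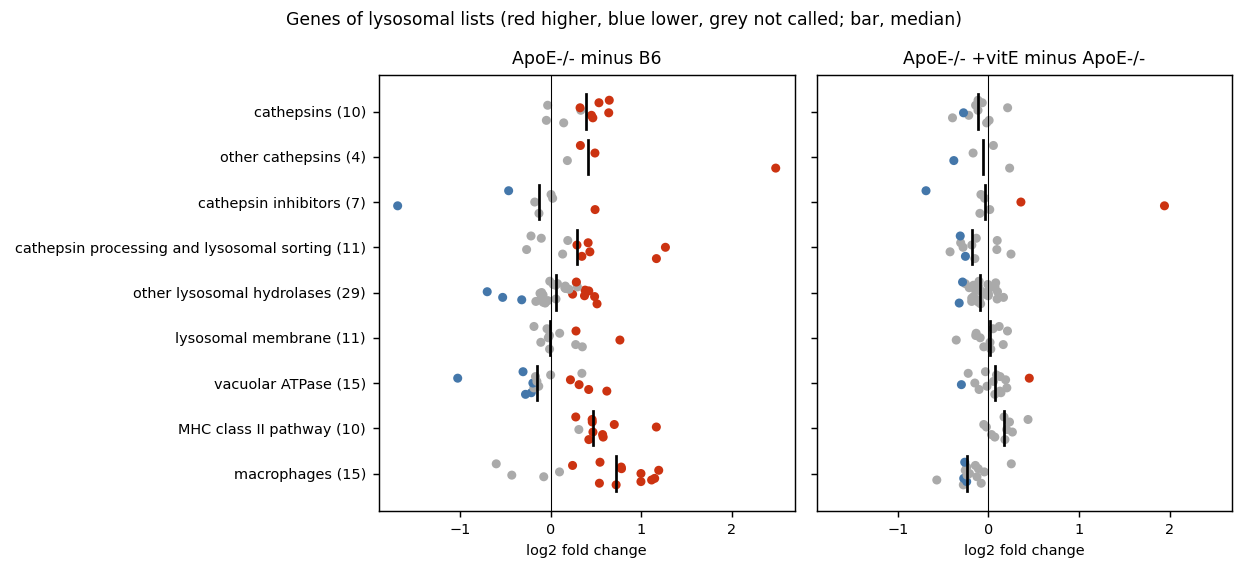
Log2 fold change (x axis) of each tested gene of the lysosomal lists, of the MHC class II pathway and of the macrophage markers, 1 row per list with the number of genes tested, for the untreated group relative to B6 (left) and the vitamin E group relative to the untreated group (right). Points are genes (red higher, blue lower, grey not called) and bars are medians, which on the left are 0.39 for the cathepsins, 0.46 for the MHC class II pathway and 0.72 for the macrophage markers.

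Genes of the MHC class II pathway, in which cathepsins S and L trim the invariant chain Cd74, were called higher than in B6 for 9 of 10 tested in the untreated group and for 10 of 10 in the vitamin E group. One of them, the transactivator Ciita, reached the limit of 100 in the ApoE-/- groups alone, so its higher signal than in B6 follows from that limit. Over all genes, 21.2% were called higher than in B6 in the untreated group and 21.1% in the vitamin E group. Between the ApoE-/- groups, 0 of the 10 were called in either direction by limma (median 0.18), and 3 had an unadjusted p under 0.05, against 31.6% of all probe sets. Cd74 had signals of 6265 and 6243 in B6, 8146 and 8620 in untreated and 8663 and 10446 in vitamin E-treated aortas. It was 1.34-fold higher in the untreated group than in B6 (0.42 ± 0.10, adjusted p = 0.0121, limma).

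Markers of cells that express cathepsins moved in part with the members. Lyz2, the lysozyme of macrophages, had signals of 4317 and 4253 in B6, 7229 and 7513 in untreated and 6773 and 6871 in vitamin E-treated aortas (log2 fold change 0.78 ± 0.06 between the untreated group and B6, adjusted p = 0.000122, limma), whereas Csf1r, the receptor of macrophage colony-stimulating factor, was not called (0.10 ± 0.07). In the vitamin E group relative to the untreated group, 3 of the 15 macrophage markers were called lower and 0 higher, whereas 7.65% of all genes were lower and 8.18% higher. C1qc was among those called lower (-0.27 ± 0.07, adjusted p = 0.0446, limma). Mmp12, the macrophage elastase, had signals of 3.93 and 15.5 in B6, 118 and 99.4 in untreated and 58.5 and 56.7 in vitamin E-treated aortas. It reached a mean of 100 in the untreated group alone, so that no fold is given. Summed signals of B cell markers were 3035 to 3113 in B6, 4939 to 5123 in untreated and 5256 to 5743 in vitamin E-treated aortas, and those of cytotoxic lymphocytes were 1267 to 1386, 2700 to 2765 and 3631 to 3939. Among 7 smooth muscle markers tested, 1 was called higher and 0 lower in the untreated group relative to B6, and 3 were lower in the vitamin E group relative to the untreated group. Over all genes, 21.2% were higher and 20.8% lower in the first of these comparisons and 7.65% lower in the second. No difference from these shares was tested.

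Markers of tissues outside the vessel wall also differed between groups. The summed signal of liver genes was 20518 to 20895 in B6, 1111 to 1117 in untreated and 2074 to 2093 in vitamin E-treated aortas, and that of heart muscle genes was 13324 to 13437, 26871 to 27582 and 13962 to 15270. Lung epithelium uses Ctsh and Napsa to process surfactant proteins. For its markers, the sums were 15902 to 16539 in B6, 13201 to 13612 in untreated and 10395 to 10473 in vitamin E-treated aortas. Most of each sum was Scgb1a1, with signals of 9903 to 12238 over the 6 arrays. The surfactant gene Sftpc differed far more than the sum. Its signals were 3074 and 3132 in B6, 1402 and 1427 in untreated and 95.6 and 103 in vitamin E-treated aortas. The part of these tissues in the cathepsin signals was not tested.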

How the data were processed

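Signal intensities of 6 arrays, linear and scaled per array, had been computed with GCOS by the authors before they were deposited. The probe set annotation gave 34945 probe sets 1 symbol, 932 several and 9160 none; 34741 of the first matched RefSeq by gene ID, which updated old symbols. After removal of 64 controls, signals under 20 were set to 20 and log2-transformed. The 17909 probe sets with a mean of at least 100 in a group were tested with limma 3.58.1 (R 4.3.3), fitted to all 6 arrays with 1 mean per group and an intensity trend (3 residual degrees of freedom). An exact test of 2 against 2 arrays cannot go below p = 0.333, so calls rest on the spread shared across probe sets. A gene is represented by its brightest probe set. All cathepsin probe sets are named, Apoe, up to 4 genes per list (the 2 brightest and the 2 that differed most between the untreated group and B6) and the 5 most alike patterns. Members and lists were chosen with earlier results of these data known. The procedure was tested on simulated data.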

Additional observations from a re-analysis of the deposited data

How the results depend on the processing

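Cathepsin probe sets called in the untreated group relative to B6 numbered 10, and 10 to 12 under quantile normalization, median centring, other floors, the other limit on low signals, no trend, the fit of 2 groups and the replicate block. They numbered 6 without a limit on low signals, 6 with 1 probe set per gene, 5 with the methods' t-test after Benjamini-Hochberg and 0 at the methods' threshold, and 6 to 12 with an array left out. Between the ApoE-/- groups, 3 became 5 under quantile normalization, 0 without a limit on low signals (7 at an unadjusted p under 0.05), 1 without the trend, in the fit of 2 groups or with 1 probe set per gene, 0 with the methods' t-test (5 at an unadjusted p under 0.05) or at the methods' threshold, and 0 to 7 with an array left out. In the vitamin E group relative to B6, 9 became 5 with 1 probe set per gene, 0 with the methods' t-test (6 at an unadjusted p under 0.05) or at its threshold, and 5 to 10 with an array left out. The methods' threshold asks for a 2-fold difference, which no tested cathepsin probe set reached, and other causes were not tested. Over all probe sets, the methods' t-test called 12.0% in the first comparison, 0% between the ApoE-/- groups and 0.374% in the third. At an unadjusted p under 0.05 it gave 19.8% and 32.4% in the last 2. Without a limit on low signals, 9.98% were called in the first and 2.11% between the ApoE-/- groups. Of the 22 cathepsin probe sets then tested, 5 of the 6 called in the first were also called with the limit. The share called also moved with an array left out.

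The replicate numbers did not pair the samples (correlations of deviations 0.05, -0.10 and 0.05), and with the replicate block the 3 calls between the ApoE-/- groups became 1. No value called with all arrays and the settings first described changed direction, but uncalled ones did, of which Ctsb 1417490_at (lower) and Ctsc (higher) were called in the vitamin E group relative to B6 without replicate 2 of that group. Under quantile normalization, Ctsb 1417490_at became 0.032 in the untreated group relative to B6 and -0.040 between the ApoE-/- groups. With an array left out, the ranges between the ApoE-/- groups were -0.069 to 0.030 for Ctsa and -0.14 to 0.16 for Ctsb 1417490_at. In the vitamin E group relative to B6 they were -0.19 to 0.11 for Ctsb 1417490_at, -0.11 to 0.25 for Ctsc and -0.22 to 0.080 for Ctsh 1443814_x_at. In the untreated group relative to B6 they were -0.056 to 0.023 for Ctsb 1417491_at, -0.071 to 0.23 for Ctsh 1443814_x_at and -0.11 to 0.043 for Ctso. Having 2 arrays per group limits how precise any value can be.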
